A study of Mus musculus with 6 samples.

Results

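The PIM kinase genes Pim1, Pim2 and Pim3 were examined in bone marrow-derived basophils (BMBAs) stimulated with IL-3. They were taken by symbol from a count table of 37043 gene symbols, and all 3 passed the filter on low counts. Bone marrow cells of C57BL/6J WT mice were cultured for 7 days at 0.3 ng/mL IL-3, and cells carrying CD49b, an integrin found on basophils, were enriched with an antibody and beads. The enriched BMBAs then received 10 ng/mL IL-3 or PBS for 6 h (n = 3 libraries each), and bulk RNA-seq was done. All cells had therefore met IL-3 before the comparison. No source used here states if the low dose of the culture was washed out or kept during the 6 h. The study's methods describe separate cultures from a single experiment. The cultures are a surrogate for basophils of the animal and still carried transcripts of other cell types, whose markers are given at the end.

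PIM kinases are serine/threonine kinases that are active as soon as they are made, because they have no switch that another kinase must turn on. The amount of a PIM protein in a cell therefore depends largely on how much is transcribed, translated and degraded. Cytokine receptors that use JAK kinases and the transcription factor STAT5, the IL-3 receptor among them, are known to raise PIM transcription in blood cells. PIM kinases phosphorylate the cell death protein BAD, cell cycle inhibitors and translation factors. They act on many of the same substrates as AKT and are known for supporting the survival and growth of cytokine-dependent cells.

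The 3 genes lie on different chromosomes, all on the plus strand (GENCODE gene models, build GRCm38). Pim1 (ENSMUSG00000024014.8) is at chr17:29490753-29496112, Pim2 (ENSMUSG00000031155.16) at chrX:7878262-7883432 and Pim3 (ENSMUSG00000035828.11) at chr15:88862186-88865726. The longest transcript of each has 6 exons. Their annotated coding sequences were of 939, 1110 and 978 nt for Pim1, Pim2 and Pim3. Identity was counted over aligned bases only, with gaps left out. It was 74.5% between Pim1 and Pim3 (928 nt aligned), 69.6% between Pim2 and Pim3 (934 nt) and 68.7% between Pim1 and Pim2 (916 nt). The longest run of identical bases between any pair was 24 nt, between Pim1 and Pim3. No run of 50 bases was shared among the family. On the transcript strand, the only one searched, Pim2 alone shared such runs with other annotated genes. These were 43 of its 2744 (1.57%), shared with Gm7645 and Gm21182, which had 1 to 5 and 0 to 8 counts per library. Runs shared with genes on the opposite strand, such as Gm26885 at Pim1, were not searched. Over 50-base runs the family members were therefore distinct from each other.

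Because the 3 genes moved together, the sequence upstream of each start is shown (RefSeq windows, build GRCm38.p6, plus strand, trimmed where the GENCODE transcript begins). Capitals mark the GC box core GGGCGG, the CAAT box letters CCAAT and the octamer ATGCAAAT on either strand, motifs added to the search after the windows had been read.

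Pim1 (chr17:29490535-29490752): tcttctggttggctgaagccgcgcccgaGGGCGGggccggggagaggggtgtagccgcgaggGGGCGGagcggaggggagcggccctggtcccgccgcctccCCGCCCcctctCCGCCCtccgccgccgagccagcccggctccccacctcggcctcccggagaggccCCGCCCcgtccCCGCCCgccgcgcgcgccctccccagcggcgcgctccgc
Pim2 (chrX:7878056-7878261): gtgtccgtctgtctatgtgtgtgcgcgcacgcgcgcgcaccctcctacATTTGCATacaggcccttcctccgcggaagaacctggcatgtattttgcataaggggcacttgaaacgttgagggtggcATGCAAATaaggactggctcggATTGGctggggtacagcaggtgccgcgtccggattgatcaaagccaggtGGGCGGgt
Pim3 (chr15:88861944-88862185): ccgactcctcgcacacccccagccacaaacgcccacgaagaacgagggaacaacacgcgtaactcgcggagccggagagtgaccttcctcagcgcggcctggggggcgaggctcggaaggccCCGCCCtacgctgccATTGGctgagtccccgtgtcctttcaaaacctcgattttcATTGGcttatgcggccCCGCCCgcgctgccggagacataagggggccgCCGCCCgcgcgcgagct

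The windows before trimming, the 250 bases before each RefSeq start, were rich in G and C. Pim1's was 82.4% G or C, a share reached by 0.578% of 32851 RefSeq windows, against 62% for Pim2 and 68% for Pim3 and a median of 52.4%. Pim1's window held 36 CpG dinucleotides, Pim3's 31 and Pim2's 22, where the median window held 6. The letters GGGCGG occurred 7 times before Pim1 (7 or more in 0.411% of windows), 3 times before Pim3 (8.47%) and once before Pim2. The last match before Pim1 is cut by the trimming and so is not capitalised above. Pim2 was the member with ATGCAAAT, which stood 123 and 202 bases before its start (at least 2 in 0.0974% of windows). CCAAT occurred 2 times before Pim3 (10.1%) and once before Pim2. Because these motifs were added after the windows had been read, their percentages describe what was noticed and are not a test.

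The search also covered 4 other motifs, TTCNNNGAA (the spacing that STAT5 dimers usually bind), the same with 4 bases in the middle, CACGTG (an E-box) and TATAAA, each on both strands. They occur in 7.02%, 5.85%, 6.02% and 12.4% of the windows, and none occurred in these 3. Pim1 has a second RefSeq start, and CACGTG stood 58 bases before that one. The windows hold only 250 bases, so these counts describe the letters next to the start.

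In the IL-3 libraries all 3 PIM transcripts were higher than in every PBS library. The fitted fold between the groups was 6.18 for Pim1, 11 for Pim2 and 6.52 for Pim3. Levels are given as CPM, the counts of a library scaled to a common total with TMM, and the test was edgeR's quasi-likelihood test with Benjamini-Hochberg adjustment over 16675 genes, called at 0.05. At that threshold 18.0% of the genes tested were called higher in IL-3 and 20.2% lower, and 48.2% had groups that did not overlap. All 3 members were called higher, and all 3 had groups that did not overlap. By size of the log2 fold change Pim2 stood 44th, Pim3 87th and Pim1 95th of the genes tested, and 195 genes were called with a log2 fold change of at least 2.

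**Figure D1:**
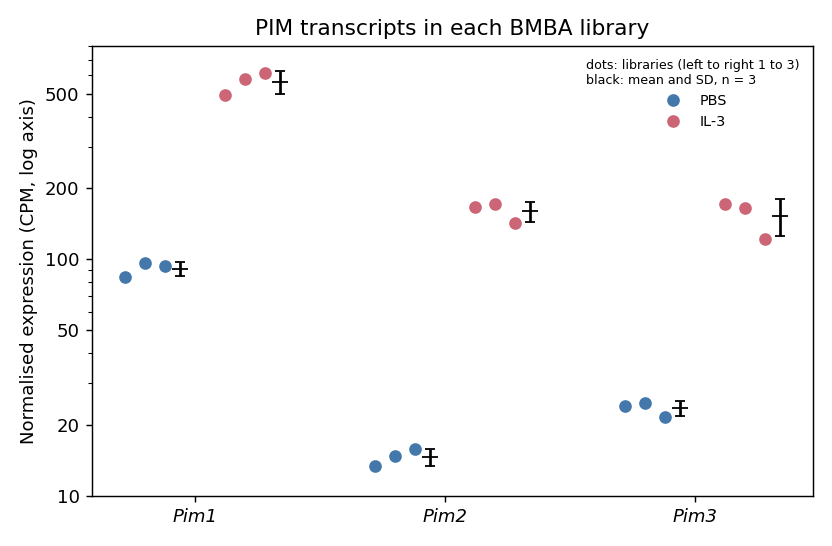
Normalised expression (CPM, log axis) of Pim1, Pim2 and Pim3 in each library, with the mean and SD (n = 3) in black. The lowest IL-3 library lay above the highest PBS library for each gene, by 5.14-fold for Pim1, 9.08-fold for Pim2 and 4.93-fold for Pim3.

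Pim1, the founding member of the family and a known partner of MYC in lymphoma, was the most abundant. It had 1028, 1101 and 1061 counts in the PBS libraries and 5028, 6953 and 7950 in the IL-3 libraries. Scaled to library size these were 84.1, 96.5 and 93.5 CPM against 496, 579 and 617 CPM. The PBS libraries lay close together, and the lowest IL-3 library was 5.14 times the highest of them. The means were 91.4 ± 6.48 and 564 ± 61.5 CPM (SD, n = 3), and the log2 fold change was 2.63 (SE 0.0786, 95% interval 2.46 to 2.79, adjusted p = 3.2e-13, edgeR).

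Pim2, a member known for its expression in lymphoid and blood cells and for being controlled mainly through the amount made, rose most in fold. Its counts were 162, 168 and 178 in PBS and 1687, 2063 and 1835 in IL-3, or 13.3, 14.7 and 15.7 CPM against 167, 172 and 142 CPM. Even the third IL-3 library, the lowest of its group, was 9.08 times the highest PBS library. The mean rose from 14.6 ± 1.22 to 160 ± 15.7 CPM (SD, n = 3), a log2 fold change of 3.46 (SE 0.0915, 95% interval 3.27 to 3.66, adjusted p = 7.01e-14, edgeR).

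Pim3, the member described more in epithelial tissues, was also expressed. Its counts were 293, 282 and 244 in PBS and 1741, 1982 and 1572 in IL-3, which gave 24, 24.7 and 21.5 CPM against 172, 165 and 122 CPM. The first and second IL-3 libraries were alike and the third was lower, yet still 4.93 times the highest PBS library. The mean rose from 23.4 ± 1.69 to 153 ± 27.1 CPM (SD, n = 3), a log2 fold change of 2.71 (SE 0.115, 95% interval 2.46 to 2.95, adjusted p = 2.51e-11, edgeR).

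The coefficient of variation among the IL-3 libraries was 10.9% for Pim1, 9.81% for Pim2 and 17.7% for Pim3, where Poisson counting of reads, a lower limit for amplified cDNA, gives 1.12 to 1.41%, 2.2 to 2.43% and 2.25 to 2.52%. In PBS, Pim2 varied by 8.4%, near the 7.5 to 7.86% of Poisson counting. The biological coefficients of variation fitted by edgeR were 0.07, 0.0674 and 0.09 for Pim1, Pim2 and Pim3, each below the median over all genes tested. That median, 0.101, covers genes of every level and was not matched to the level of the members.

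**Figure D2:**
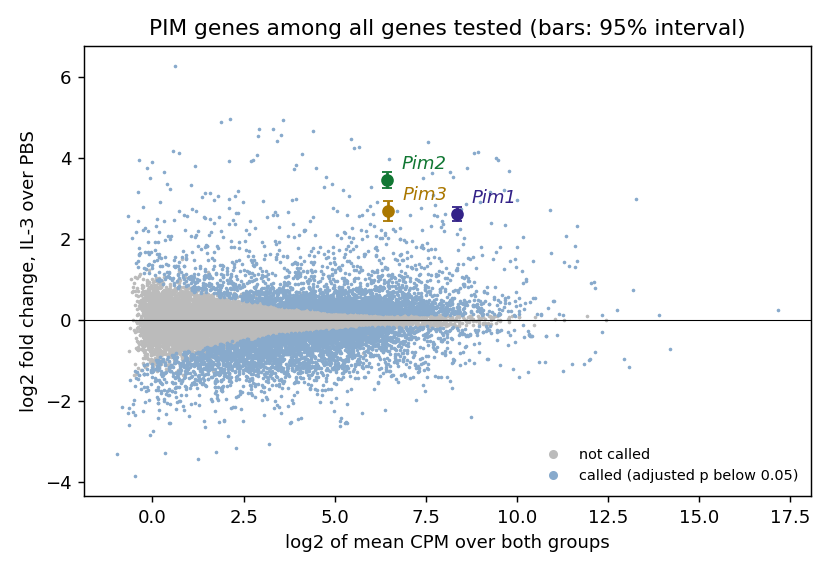
The log2 fold change (IL-3 over PBS) of every gene tested against the log2 of its mean CPM over both groups, with called genes in blue and the PIM genes in colour with 95% intervals. Pim1 (2.63), Pim2 (3.46) and Pim3 (2.71) lie well above the mass of genes, whose median was -0.003.

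To compare the members with each other, CPM was divided by the length of the merged exons (3362, 2795 and 2427 nt for Pim1, Pim2 and Pim3). In PBS the order of these levels per kilobase was Pim1 at 27.2 ± 1.93, Pim3 at 9.64 ± 0.697 and Pim2 at 5.21 ± 0.438 (SD, n = 3), and no library of one gene overlapped those of the next. In IL-3, Pim1 stood at 168 ± 18.3, while Pim3 at 63 ± 11.2 and Pim2 at 57.3 ± 5.63 overlapped and were not separated by their spread. The order of that pair also turns without the division by length, at 153 CPM for Pim3 and 160 CPM for Pim2. Among 12600 protein-coding genes tested, Pim1 moved from rank 1320 to rank 243 by level per kilobase, Pim3 from 3402 to 636 and Pim2 from 5402 to 703.

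Added together, the family's level per kilobase was 39.6, 44.2 and 42.3 in the PBS libraries and 278, 302 and 285 in the IL-3 libraries, a 6.86-fold difference of the means (42 ± 2.28 and 288 ± 12.2, SD, n = 3). Relative to its mean the sum varied by 4.24% among the IL-3 libraries, less than any single member did. Pim1 made up 64.6 ± 1.37% of it in PBS and 58.2 ± 5.76% in IL-3. The share of Pim2 was 12.4 ± 0.765% in PBS and 19.9 ± 1.82% in IL-3, with no overlap between the groups. The share of Pim3 was 23 ± 1.98% and 21.9 ± 3.95%, with overlap.

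**Figure D3:**
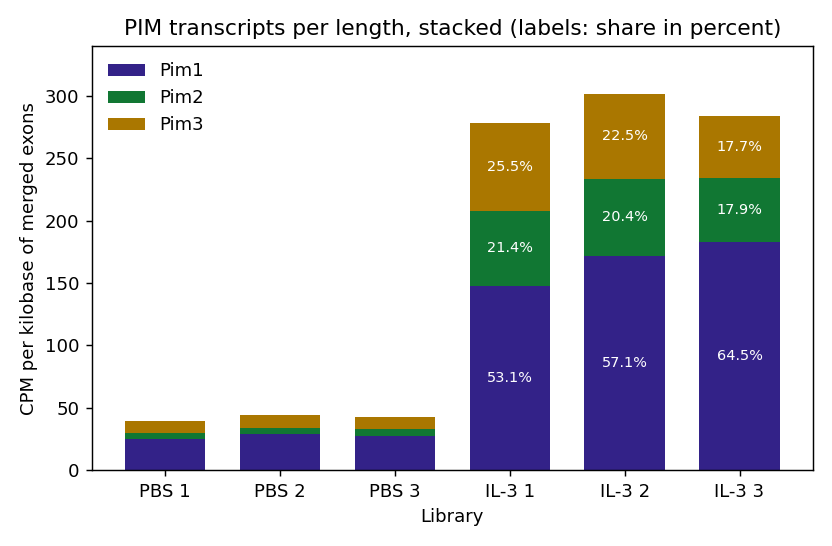
CPM per kilobase of merged exons for Pim1, Pim2 and Pim3, stacked for each library, with each gene's share of the sum written in the IL-3 bars. The sum ran from 39.6 to 44.2 in PBS and from 278 to 302 in IL-3, and the share of Pim1 in IL-3 ran from 53.1 to 64.5%.

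Whether the members responded by different amounts was tested on the log2 ratio of their counts within each library, which library scaling cannot change. For Pim1 over Pim2 the ratio was 2.66, 2.71 and 2.57 in PBS and 1.58, 1.75 and 2.11 in IL-3. The groups did not overlap and their means differed by -0.83 (exact permutation test, two-sided, n = 3 against 3, p = 0.10, adjusted p = 0.15 over 3 pairs). For Pim2 over Pim3 the ratio was -0.85, -0.75 and -0.45 in PBS and -0.05, 0.06 and 0.22 in IL-3, again without overlap, a difference of 0.76 (exact p = 0.10, adjusted p = 0.15). This permutation test cannot give a smaller p with 3 against 3 libraries, so it could not have called a difference between members at 0.05. For Pim1 over Pim3 the ratio was 1.81, 1.96 and 2.12 in PBS and 1.53, 1.81 and 2.34 in IL-3, which overlapped, and the difference was -0.07 (exact p = 0.90, adjusted p = 0.90). That difference ran from -0.293 to 0.111 as each library was left out in turn.

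Within the IL-3 group Pim1 varied differently from Pim2 and Pim3. The third IL-3 library had the highest Pim1 (617 CPM) and the lowest Pim2 (142 CPM) and Pim3 (122 CPM), and the first had the lowest Pim1 (496 CPM) and the highest Pim3 (172 CPM). The third was also the deepest, at 13999287 counts against 10537540 and 12690583 in the first and second. The part of depth in this pattern was not tested.

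The 3′ UTRs, where proteins that control mRNA decay bind, were searched for ATTTA, the core of AU-rich elements. Pim1's 3′ UTR of 1365 nt held 5, Pim2's of 915 nt held 2 and Pim3's of 964 nt held 5, overlapping matches counted. Per kilobase these were 3.66, 2.19 and 5.19, and a density at least as high was found in 11.1%, 29.9% and 4.35% of 12483 genes tested, whose median was 1.28. The longer form TATTTAT occurred 4 times in Pim1, 2 times in Pim3 and not in Pim2, while 31.6% of genes had at least 1. In Pim1 the 4 overlap in 1 run, and 2.07% of genes had as many. The sites are shown because they set Pim2 apart from the other members, with the motif in capitals.

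Pim1 (chr17:29495691-29495719): taatgTATTTATTTATTTATTTATttggt
Pim3, first site (chr15:88865224-88865246): cggtctctTATTTATggtgtgat
Pim3, second site (chr15:88865271-88865293): gctggggcTATTTATtgtttaat

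Genes of 5 groups around the PIM kinases were read from the same fit, and each group is described by its counts beside the 18.0% of all genes called higher, the 20.2% called lower and the median log2 fold change of -0.003. The first group was the IL-3 receptor with its JAK kinases, STAT factors and phosphatases. Of 13 genes, all tested, 5 rose, 2 fell and 6 were not called, with a median log2 fold change of -0.05. With scaling by library totals, 5 were called higher and 6 lower. The signalling subunits rose most. Csf2rb2, the beta subunit used by the mouse IL-3 receptor alone, went from 940 ± 20.5 to 2979 ± 82 CPM (log2 fold change 1.66, SE 0.0416), and Csf2rb, the common beta subunit shared with IL-5 and GM-CSF receptors, went from 1779 ± 35.1 to 4459 ± 112 CPM (1.33, SE 0.0386). The pair is nearly identical in sequence, so how reads were split between them is uncertain. Jak2, the kinase bound to the beta subunit, rose from 77.2 ± 0.864 to 163 ± 9.29 CPM (1.07, SE 0.0609), and Jak1 by a log2 fold change of 0.40 (SE 0.0577, adjusted p = 4.05e-05).

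The transcripts of the STAT factors themselves did not rise. Stat5a was at 34.6 ± 2.66 and 33.4 ± 1.55 CPM (log2 fold change -0.05, adjusted p = 0.706). Stat5b fell slightly from 60.4 ± 3.26 to 51.1 ± 2.67 CPM (-0.24, SE 0.0735, adjusted p = 0.0178), and so did Stat3 (-0.25, SE 0.0689, adjusted p = 0.00935). Stat5a, Stat5b and Stat3 were named after their values were seen. The call for Stat5b was lost when PBS replicate 2, PBS replicate 3 or IL-3 replicate 1 was left out (adjusted p = 0.0548, 0.0623 and 0.0717, edgeR).

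Other genes known as STAT5 targets mostly rose with the PIM genes. Of 16 listed, 15 were tested, of which 13 rose and 2 fell, with a median log2 fold change of 2.22. This list was chosen with earlier results of these data known, so its values describe the list and are no independent support. Of the 15, 5 had a larger log2 fold change than Pim1, and 4 had a larger one than Pim2 and than Pim3. The 4 with the largest rises included 3 feedback inhibitors of cytokine signalling. Socs1 went from 49.4 ± 4.76 to 860 ± 25.2 CPM (log2 fold change 4.12, SE 0.0683), Cish from 81.2 ± 6.61 to 1311 ± 53.5 CPM (4.01, SE 0.0642) and Socs3 from 30.7 ± 1.07 to 379 ± 6.28 CPM (3.63, SE 0.0607). Osm, which encodes the cytokine oncostatin M, rose from 126 ± 6.39 to 1631 ± 149 CPM (3.69, SE 0.068). Socs2, another feedback inhibitor, rose less (2.20, SE 0.0784) and was named after its value was seen. The 2 that fell, named after their values were seen, were the transcriptional repressor Bcl6 (11.2 ± 2.25 to 3.72 ± 0.594 CPM, -1.58, SE 0.193) and the stress-response gene Gadd45g (42.2 ± 5.1 to 18.6 ± 0.544 CPM, -1.18, SE 0.103). The list did not separate targets that STAT5 raises from those that it lowers. Ccnd1 was not tested.

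Genes whose proteins PIM kinases are known to phosphorylate moved both ways. Of 26 listed, 25 were tested, of which 6 rose, 11 fell and 8 were not called, and the median log2 fold change was -0.32. Socs1 and Myc belong to this group and to the STAT5 group. Myc, a growth factor-responsive transcription factor, rose from a low 3.61 ± 0.317 to 23 ± 4.08 CPM (2.67, SE 0.169), and Cdkn1a, the cell cycle inhibitor p21, from 149 ± 9.42 to 609 ± 15.3 CPM (2.03, SE 0.0569). Cxcr4, a chemokine receptor that keeps blood cells in bone marrow, fell from 67 ± 6.17 to 11.5 ± 0.563 CPM (-2.54, SE 0.0976). Bad, the death protein that PIM kinases inactivate, fell from 53.9 ± 5.27 to 41.6 ± 1.98 CPM (-0.37, SE 0.0845, adjusted p = 0.00234). Foxo3, a transcription factor of the same survival pathway, was at 147 ± 12.6 and 152 ± 13.2 CPM (0.04, adjusted p = 0.695). Bad and Foxo3 were named after their values were seen. All of these are transcript levels, and phosphorylation was not measured.

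The AKT, SGK and S6 kinases, which share substrates with PIM, changed little beside the PIM genes. Of 12 genes, all tested, 4 rose, 3 fell and 5 were not called, and the median log2 fold change was 0.00. Among the called genes Sgk1, a kinase induced by serum and glucocorticoids, fell from 235 ± 21.2 to 128 ± 3.19 CPM (-0.88, SE 0.0656). Rps6kb2, an S6 kinase, rose by a log2 fold change of 0.43 (SE 0.0911) and Rps6ka1, a kinase downstream of ERK, by 0.42 (SE 0.0652). Each PIM gene had a larger log2 fold change than any of these 12.

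The last group was made of factors that act on PIM mRNA or protein, such as binders of AU-rich elements, cap-dependent translation factors, the HSP90 chaperone and the phosphatase PP2A. Of 14 genes, all tested, 9 rose, none fell and 5 were not called, with a median log2 fold change of 0.26. At an unadjusted p under 0.05 in edgeR 1 was lower, Cdc37, an HSP90 partner that brings kinases to the chaperone (-0.14, SE 0.0589, adjusted p = 0.0838). Cdc37 was called lower with library totals (-0.298, adjusted p = 0.00125), with iterated TMM (-0.159, adjusted p = 0.045) and without IL-3 replicate 2 (-0.184, adjusted p = 0.0457), and with DESeq2 size factors the count called lower was 0. The rises were small. Elavl1, which stabilises AU-rich mRNAs, rose from 57.2 ± 2.54 to 84.2 ± 1.1 CPM (0.56, SE 0.0638), the helicase gene Eif4a1 by 0.38 (SE 0.053), the chaperone gene Hsp90aa1 by 0.37 (SE 0.055) and Zfp36, which promotes decay of AU-rich mRNAs, by 0.33 (SE 0.0667, adjusted p = 0.000889). With scaling by library totals, which shifts the median of all genes by -0.16, this group had 3 called higher and 2 lower, and Zfp36 was no longer called (adjusted p = 0.0698, edgeR).

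**Figure D4:**
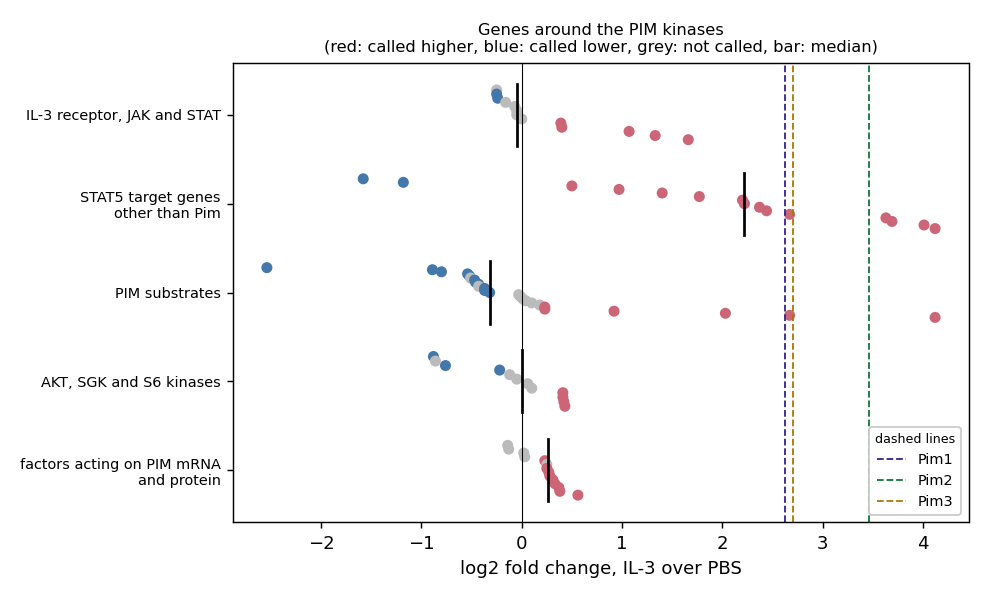
The log2 fold change (IL-3 over PBS) of each tested gene in the 5 groups, in red where called higher, blue where called lower and grey where not called, with the group median as a black bar and the PIM genes as dashed lines. The median of the STAT5 group, 2.22, lies near the lines of Pim1 (2.63) and Pim3 (2.71), and the other medians lie between -0.32 and 0.26. The groups were chosen with earlier results of these data known.

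The genes beside each member on its chromosome moved far less than the member did. Of the 3 nearest protein-coding genes on each side, 18 in all, 13 were tested, of which 5 rose, 1 fell and 7 were not called, beside 18.0% of all genes called higher and 20.2% lower. Around Pim1, Tbc1d22b rose (log2 fold change 0.54, SE 0.152), Pi16 fell (-0.46, SE 0.138), and Fgd2 (-0.03), Mtch1 (0.01) and Gm17657 (-0.15) were not called. Around Pim2, where genes are dense, Slc35a2 begins 596 nt after Pim2 ends and was not called (0.19, SE 0.104, adjusted p = 0.174), nor was Gripap1 (0.15). Otud5, 1.64 kb before Pim2, rose by 0.38 (SE 0.0665), Pqbp1 by 0.45 (SE 0.0928) and Timm17b by 0.32 (SE 0.105). Beside Pim3 the nearest tested gene, Creld2, encoding a protein of the endoplasmic reticulum, lies 35.5 kb away and rose from 33.9 ± 4.2 to 57.8 ± 3.07 CPM (0.77, SE 0.0914), while Alg12 (0.04) and Zbed4 (-0.11) were not called. Tmem217, Kcnd1, Ttll8, Mlc1 and Mov10l1 had at most 11 counts in any library and were not tested.

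The calls of several of these neighbours were not stable. Tbc1d22b, Pi16 and Timm17b each lost theirs when some single libraries were left out, with adjusted p up to 0.0636, 0.0687 and 0.125 (edgeR), and library totals as scaling also ended those of Tbc1d22b (adjusted p = 0.0664) and Timm17b (0.248). Slc35a2 was called without PBS replicate 3 (log2 fold change 0.29, adjusted p = 0.0474). Gm26885, an antisense gene that overlaps Pim1, was at 6.12 ± 0.402 and 6.17 ± 0.106 CPM in the PBS and IL-3 groups (0.01, adjusted p = 0.965). No source used here states whether the counting used the strand of the reads.

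**Figure D5:**
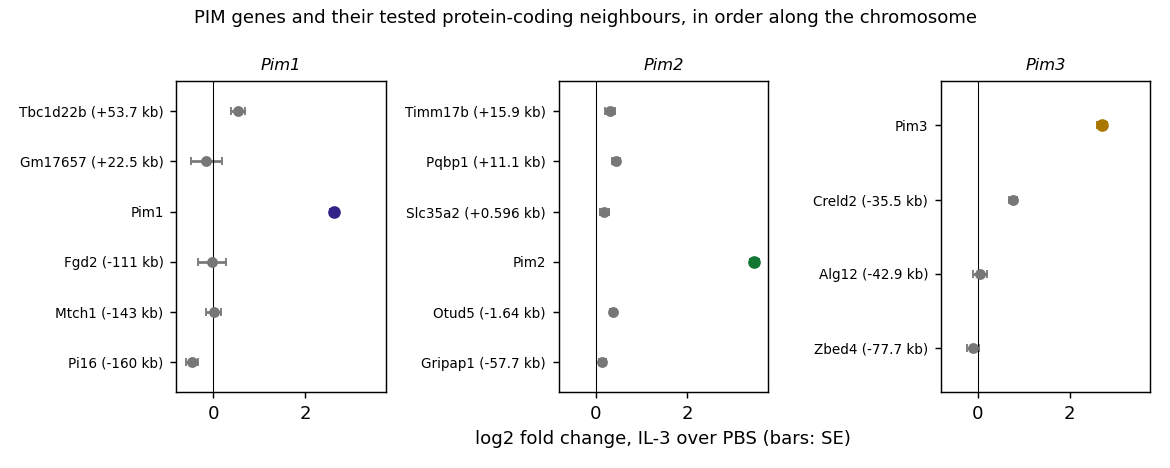
The log2 fold change (IL-3 over PBS) with its SE for each PIM gene and its tested protein-coding neighbours, ordered along the chromosome, with the distance from the PIM gene in kilobases beside each name. No neighbour exceeded 0.77, the value of Creld2, while the PIM genes stood at 2.63, 3.46 and 2.71.

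Among 8192 protein-coding genes with a mean of at least 10 CPM, the pattern over the 6 libraries most like each member's was sought by the root mean square difference of log2 CPM centred on each gene's mean. Closest to Pim1 was Lama5, a laminin chain of basement membranes, at 0.061 (89.5 ± 3.28 to 583 ± 67 CPM), followed by the protease inhibitor gene Slpi (0.102), the leukotriene B4 receptor gene Ltb4r1 (0.103), the kinase gene Nek6 (0.110) and Plxdc2 (0.111). Closest to Pim2 were Glipr2 (0.114), Socs3 (0.123), Tarm1 (0.123), Akr1c13 (0.135) and Gzmb (0.142), which encodes granzyme B. Closest to Pim3 were Tiam1 (0.127), a Rac activator, the checkpoint receptor gene Havcr2 (0.131), Pik3cd (0.138), the leukocyte PI3-kinase subunit, Myc (0.151) and Nek6 (0.157). The family members were not each other's nearest. Pim1 and Pim3 differed by 0.255, Pim2 and Pim3 by 0.405 and Pim1 and Pim2 by 0.443, and 44 candidates lay closer to Pim1 than Pim3 did. These measures rest on 6 libraries that share 1 contrast.

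Basophil markers were abundant in every library, with a summed level of 11650 to 12978 CPM with PBS and 18189 to 18408 CPM with IL-3, and 7 of 10 were called higher and 2 lower, Fcer1a and Cebpa. The calls of this and the following marker lists stand beside the 18.0% of all genes called higher and the 20.2% called lower. The monocyte and macrophage markers summed to 11701 to 12628 CPM with PBS and 6134 to 6760 CPM with IL-3, with 6 of 9 called lower and 2 higher. Lyz2, the most abundant, made up most of both sums, at 10456 ± 432 CPM with PBS and 5348 ± 316 CPM with IL-3. The mast cell markers summed to 364 to 398 CPM and 711 to 800 CPM, with 4 of the 6 tested called higher. The neutrophil markers summed to 75.6 to 111 CPM with PBS and 129 to 190 CPM with IL-3, those of eosinophils to 157 to 175 and 99 to 139, and those of erythroid cells to 100 to 219 and 54.6 to 101. Of those tested, 2 of 5 neutrophil markers were called higher and 1 lower, 1 of 6 eosinophil markers higher (Prg2, log2 fold change 3.54, SE 0.212) and 3 lower, and 2 of 4 erythroid markers lower. Fcer1a, Cebpa, Prg2 and Clec9a were named after their values were seen. None of the 6 NK cell markers was tested, Gzma being at 0, and markers of B cells, T cells and dendritic cells summed to at most 16 CPM, with 1 of the 6 tested called lower (Clec9a, log2 fold change -1.29, adjusted p = 0.000419, edgeR). Marker sums thus differed between the groups in both directions while the PIM genes rose, and their part in the PIM result was not tested. In bulk RNA, fewer cells of a type and less RNA per cell cannot be told apart.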

How the data were processed

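Bulk RNA-seq was analysed for 3 PBS and 3 IL-3 libraries. According to the study's methods, cDNA was amplified from a fixed number of BMBAs, fragmented and sequenced, adapters were removed with Cutadapt (3.4 in the submitters' processing notes) and reads were aligned with Bowtie2 to reference RNA sequences. The methods name GRCm38 and the processing notes GRCm39, and coordinates printed here are those of GRCm38 annotations. No unique molecular identifiers are described, so amplified copies cannot be removed and counting errors are lower limits. The deposited file holds raw counts per gene symbol made by the authors, with 10537540 to 13999287 counts per library and 3 counts equal to 0.214 to 0.285 CPM. A ribosomal RNA row took 13.4 to 16.5% of the counts and stayed in. No library pair agreed within counting noise.

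Genes were filtered with filterByExpr, scaled by TMM (factors 0.9236 to 1.073) and tested with the quasi-likelihood test of edgeR 4.0.16 (R 4.3.3) with group as the only term, after a test on simulated data. The p-values measure the spread between cultures of a single experiment. Ratios of members used counts plus 0.5. Alternatives used DESeq2 1.42.0 and limma 3.58.1, other scalings, filters and thresholds, a replicate block and each library left out. Members, gene groups and markers were chosen with earlier results of these data known. Genes named are the 3 members, the 4 called genes with the largest change in each group, genes needed to say what was not called, all neighbours, and the 5 genes most like each member. A gene that the rule names is not reported here. Protein sequences were not used here.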

Additional observations from a re-analysis of the deposited data

How the results depend on the processing

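The log2 fold changes of Pim1 (2.46 to 2.71), Pim2 (3.30 to 3.54) and Pim3 (2.55 to 2.85) kept their direction and their call under all 20 alternatives, with adjusted p of at most 2.91e-11, 1.25e-10 and 1.47e-09. Of 270 values recomputed for the results other than single named genes, 251 kept their direction and call or stayed within the set margin. With library totals as scaling, which moves the median of all genes by -0.16, 1698 genes were called higher and 5030 lower, so 25.2% of calls were higher against 47.1% with TMM. The receptor group then had 6 called lower, and the group of factors acting on PIM had 3 higher and 2 lower. With iterated TMM the factors had 1 lower. Requiring a fold of more than 1.5 left 709 higher and 883 lower, and with a threshold of 0.01 the receptor group had 1 lower. With a library left out, the receptor group had 1 to 3 lower (1 without PBS replicate 2) and the factors 0 to 2 (2 without IL-3 replicate 2). Family shares moved with the length used. With the longest transcript they were 66.9%, 14.1% and 19.1% in PBS for Pim1, Pim2 and Pim3, and 22.4% for Pim2 in IL-3. Without length they were 70.6%, 11.3% and 18.1% in PBS, and 64.2% for Pim1 and 17.5% for Pim3 in IL-3. Beyond the alternatives named, the cause of these moves was not tested.

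The 58 tested genes named besides the members were recomputed under 11 alternatives after their values had been seen, and of 638 values 598 kept direction and call. Sign changes occurred for 8 genes that were not called. With library totals the log2 fold changes were -0.121 for Foxo3, -0.157 for Mtch1, -0.0114 for Gripap1, -0.128 for Alg12 and -0.151 for Gm26885, and with iterated TMM -0.0131 for Mtch1 and -0.0119 for Gm26885. With a library left out they ran from -0.0262 to 0.1 for Foxo3, -0.259 to 0.0765 for Fgd2, -0.154 to 0.239 for Mtch1, -0.288 to 0.000406 for Gm17657, -0.0976 to 0.2 for Alg12, -0.201 to 0.00488 for Zbed4 and -0.0238 to 0.0641 for Gm26885.

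Replicate numbers are shared by the groups, but deviations of same-numbered libraries did not correlate (r of -0.0087, -0.016 and -0.022). No pairing by number was therefore seen, though this check could not exclude that same-numbered libraries shared a source. With the replicate block the log2 fold changes were 2.62, 3.46 and 2.70 for Pim1, Pim2 and Pim3 (adjusted p = 2.91e-11, 1.25e-10 and 2.69e-10, edgeR), and 2842 genes were called higher and 3247 lower. The lowest count of a member in a library was 162, for Pim2 in PBS, where Poisson counting alone gives a spread of 7.86%. Levels per length depend on even reads along each transcript, which the counts cannot show.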
